A study of Danio rerio with 6 samples.

Results

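Aminoacyl-tRNA synthetases attach each amino acid to its tRNA and so supply the ribosome with its substrates. Animals carry separate sets for the cytosol and for mitochondria, most of them encoded by different nuclear genes, and several cytosolic enzymes assemble with scaffold proteins into a multisynthetase complex. Class I and class II enzymes have unrelated catalytic domains. The genes described here are the 34 rows, of 21837 named rows in the deposited expression table, whose gene name follows the synthetase pattern of an amino acid letter before "ars", together with eprs1, farsa and farsb. Of these, 19 were cytosolic and 15, whose names end in 2, mitochondrial. All 34 names were symbols in the reference gene tables. No row was matched for the mitochondrial genes hars2 and tars2, which were not analysed here. The leucine genes lars1a and lars1b and the threonine gene tars3 lie outside the name pattern and are given separately.

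Zebrafish embryos of the line Tg(fli1a:eGFP) were used at 28 hours post fertilization, and RNA came from their GFP+ cells without culture. The embryos carried a control morpholino (control MO, 3 libraries) or a clec16a morpholino (clec16a MO, 3 libraries); a morpholino is an antisense oligomer against 1 transcript. Groups follow the genotype label. The sample titles, Exp2D for control MO and NegaP for clec16a MO, do not name the morpholino. Every direction given here depends on that label. The transgene places eGFP under fli1a regulatory sequence, which as background is known to act in endothelium and in some blood and pharyngeal arch cells, and both groups share it. The labels give no dose, no gate and no clutch for the replicates. The p-values therefore reflect the spread among these libraries alone, which may be technical, and a batch that followed the groups cannot be told apart from them. The study's stated question is how clec16a acts in hematopoietic stem and progenitor cells, and its title names mitophagy.

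Values are FPKM, fragment numbers scaled to transcript length and to the mapped fragments of the library, so levels are per length. Comparisons between genes also rest on how evenly transcripts were captured and amplified, which was not tested. The depth is unknown. Summed FPKM lay between 488667 and 546225 per library, and 19250 to 19317 named rows were above 0 in control libraries against 15153 to 15871 in clec16a MO libraries. clec16a read 14.4, 14.1 and 14.3 FPKM in control libraries and 5.68, 5.57 and 4.24 FPKM in clec16a MO libraries. fli1a, whose regulatory sequence drives the reporter, read 1096, 1083 and 967 FPKM against 109, 96.8 and 114 FPKM, so every clec16a MO library was far below the control range. The groups also differed in markers of cell types, and endothelial markers, which check the labelled cells, were lower in clec16a MO libraries. The 7 endothelial markers summed to 714 to 750 FPKM in the control and 101 to 108 FPKM in clec16a MO libraries, with erg listed at 0 in the latter. The 7 erythroid markers summed to 769 to 862 and 11680 to 18560 FPKM, and the 7 myeloid markers to 21.4 to 22.7 and 1571 to 2313 FPKM, with mpx and mfap4 listed at 0 in each control library. The 6 skeletal muscle markers went from 2262 to 2280 FPKM down to 15.8 to 22.5 FPKM, the 6 epidermal markers from 984 to 1005 down to 85.8 to 98.8 FPKM, and the 4 neural markers from 8.66 to 9.23 down to 2.005 to 3.76 FPKM. These marker differences accompany every result that follows, and their part in it was not tested. In bulk RNA, fewer cells of a type and less RNA per cell cannot be told apart.

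The synthetase genes did not change as 1 block. In the clec16a MO libraries the transcripts for arginyl-, tyrosyl- and the mitochondrial asparaginyl- and cysteinyl-tRNA synthetases rose. Those for methionyl-, isoleucyl-, glutamyl-prolyl-, tryptophanyl-, phenylalanyl-, asparaginyl- and valyl-tRNA synthetases of the cytosol fell. Transcripts for the mitochondrial isoleucyl- and valyl-tRNA synthetases also fell, and that for the mitochondrial glutamyl-tRNA synthetase was listed at 0. Values were tested as log2(FPKM + 1) with limma over the 12153 named rows with a mean of at least 1 FPKM, and called at a Benjamini-Hochberg adjusted p below 0.05. Of the 34 members, 29 passed the filter; 6 of them were called higher, 15 lower and 8 not called. Over all tested rows 26.7% were called higher and 54.6% lower (81.3% in either direction), so shares of 20.7% and 51.7% among the tested members lay near the background. The median log2 difference was -0.50 over the 29 members and -0.66 over all tested rows.

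The cytosolic and mitochondrial members were also counted separately. Of all tested rows, 26.7% were called higher and 54.6% lower. Of 19 cytosolic members, all of which passed the filter, 3 were called higher (15.8%), 12 lower (63.2%) and 4 not called. Their median log2 difference was -0.78. Of 15 mitochondrial members only 10 passed. Of these, 3 were called higher (30%), 3 lower (30%) and 4 not called, with a median of 0.32. Among those called higher, 2 had control means below 1 FPKM and passed the filter through the clec16a MO group. Among those called lower, 2 had clec16a MO means below 1 FPKM and passed through the control group. The 5 mitochondrial members below the filter all read lower on average in clec16a MO libraries, so the median of those that passed does not stand for all 15. With every row tested, 3 of the 15 were called higher and 7 lower, their median was -0.38, and of all 21837 rows 16.3% were called higher and 47.8% lower. The difference between the 2 sets was not tested. Class I enzymes counted 3 higher and 8 lower of 14 tested (21.4% and 57.1%). Class II enzymes counted 3 higher and 6 lower of 14 (21.4% and 42.9%), against 26.7% and 54.6% of all tested rows. eprs1, which joins a class I and a class II enzyme in 1 protein, was called lower.

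Scaling bears on the smaller differences. Centring each library on its median moved the median log2 difference of all tested rows by 0.69, and quantile normalization moved it by 0.62. With median centring 14 members were called higher and 12 lower, and with quantile normalization 12 and 14, where all tested rows counted 4819 higher and 4632 lower, and 4614 and 4835. The direction of gars1, sars1, aars1, hars and pars2 turned with median centring, and that of aars1 and pars2 also with quantile normalization.

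**Figure D1:**
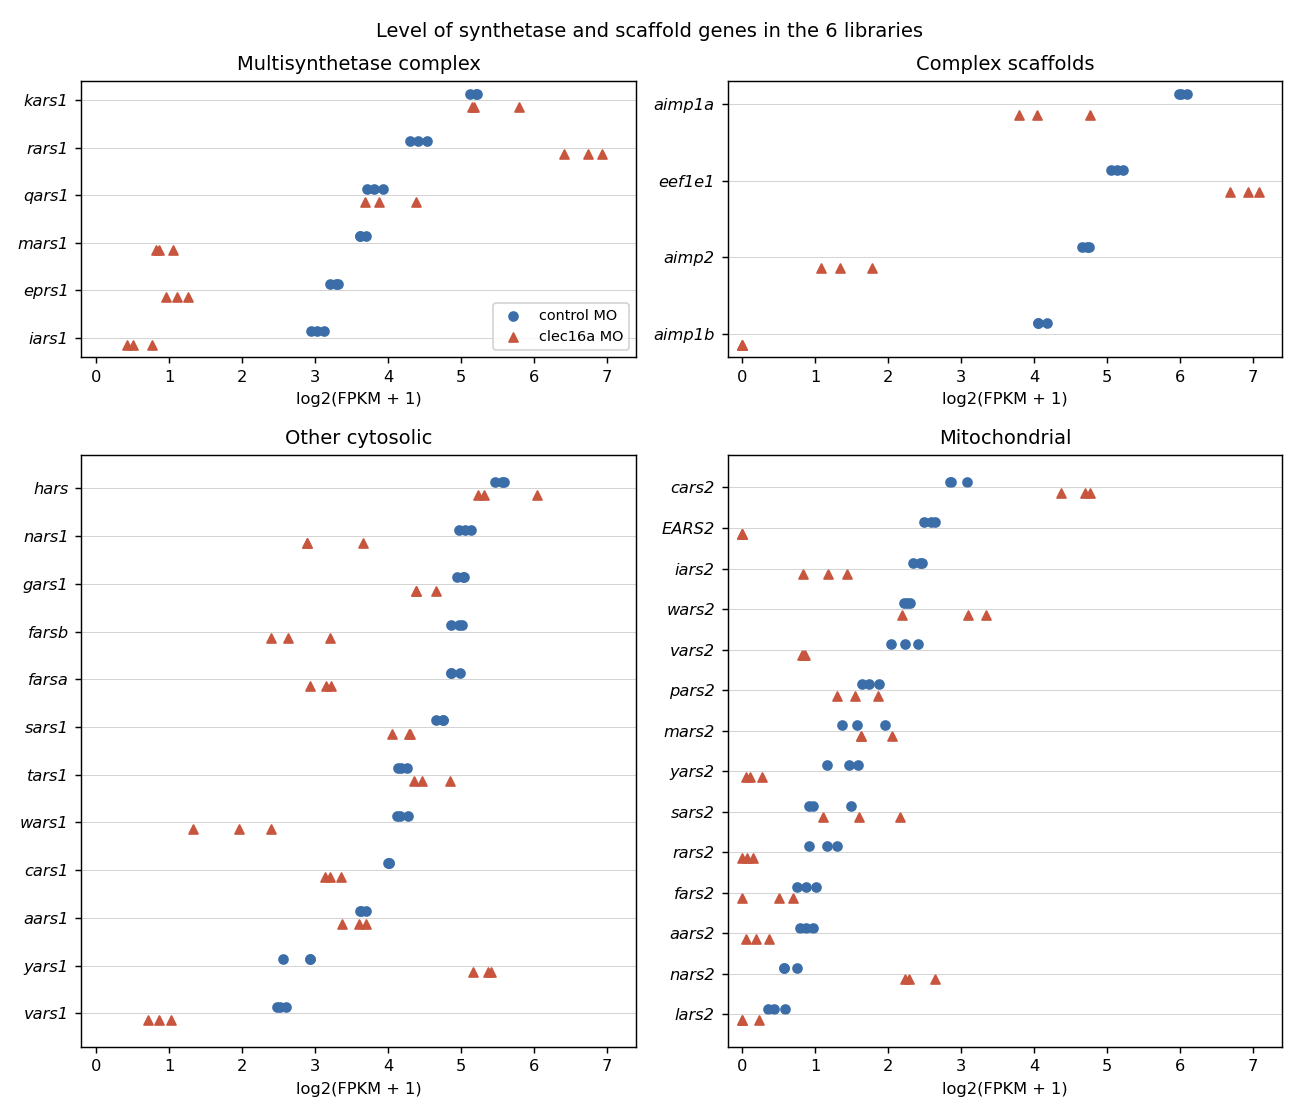
Each point is the level of 1 gene in 1 library as log2(FPKM + 1), for the named members of the multisynthetase complex, its 4 scaffold genes, the other 12 cytosolic and the named mitochondrial synthetase genes; blue circles are the 3 control MO and red triangles the 3 clec16a MO libraries. rars1, yars1, eef1e1, cars2 and nars2 stand to the right of their controls, and mars1, iars1, wars1, aimp2 and aimp1b far to the left.

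Among the enzymes that form the multisynthetase complex in vertebrates, 1 rose, 4 fell and 2 were not called (14.3% higher and 57.1% lower, against 26.7% and 54.6% of all tested rows). rars1, which charges arginine, read 20.2, 18.7 and 22.2 FPKM in control libraries and 121, 106 and 83.7 FPKM in clec16a MO libraries. It was the highest synthetase transcript of the clec16a MO group, at 103 ± 18.7 FPKM (SD, n = 3) against 20.3 ± 1.75 FPKM, a 5.08-fold ratio of means (log2 difference 2.28 with SE 0.15, limma adjusted p = 6.3e-06). The groups were far apart, and every clec16a MO library lay above every control library, as in 27.6% of all tested rows.

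The other called members of the complex went the opposite way. mars1, which charges methionine, read 11.3, 12.001 and 11.2 FPKM in control and 1.08, 0.821 and 0.762 FPKM in clec16a MO libraries (log2 difference -2.73 with SE 0.12, limma adjusted p = 1.2e-06). iars1, for isoleucine, read 6.69, 7.15 and 7.73 FPKM against 0.700, 0.348 and 0.419 FPKM (log2 difference -2.46 with SE 0.14). The means of mars1 and iars1 in the clec16a MO group were below 1 FPKM, so their folds are imprecise. eprs1, the joined glutamyl-prolyl enzyme, read 8.26, 8.77 and 8.93 FPKM against 1.40, 1.15 and 0.952 FPKM (log2 difference -2.16 with SE 0.13). None of these 3 overlapped between groups, where 56.1% of all tested rows lay below without overlap. Each of the 3 stayed past the threshold with the libraries centred or quantile-normalized.

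The glutaminyl and lysyl enzymes of the complex were not called. qars1 read 12.1, 13.04 and 14.3 FPKM in control libraries and 19.8, 11.8 and 13.7 FPKM in clec16a MO libraries (log2 difference 0.16 with SE 0.19, limma adjusted p = 0.45). kars1, which in vertebrates also provides the mitochondrial lysyl enzyme, read 33.8, 36.0 and 36.1 FPKM against 54.3, 35.3 and 34.6 FPKM (log2 difference 0.19 with SE 0.18, limma adjusted p = 0.34). In both genes clec16a MO replicate 1 stood above all other libraries and the remaining clec16a MO libraries lay within or just below the control range. Without that replicate the log2 differences were -0.04 and -0.01. Both were called higher with median centring (0.85 and 0.88), and qars1 also with quantile normalization (0.53).

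The scaffold genes of the complex were divided in the same way. aimp1a read 62.0, 67.6 and 63.7 FPKM in the control and 26.1, 12.9 and 15.4 FPKM in clec16a MO libraries (log2 difference -1.84 with SE 0.24, limma adjusted p = 0.00023). Its paralog aimp1b read 15.5, 15.6 and 17.1 FPKM in control libraries and was listed at 0 throughout the clec16a MO group; an exact 0 in this table can be a failed estimate, so no fold is given. aimp2 read 24.1, 25.5 and 25.8 FPKM against 2.42, 1.12 and 1.53 FPKM (log2 difference -3.31 with SE 0.18). Thus 3 of the 4 scaffold genes were lower with no overlap between groups, where 56.1% of all tested rows were. eef1e1, whose human product is the AIMP3 subunit, rose from 36.3, 32.1 and 34.2 FPKM to 102, 134 and 121 FPKM (log2 difference 1.76 with SE 0.12, limma adjusted p = 8.0e-06). Among the 7 synthetases and 4 scaffolds tested, only rars1 and eef1e1 were called higher, where 26.7% of all tested rows were.

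The leucyl enzyme of the complex falls outside the name pattern, and its rows are given for completeness. lars1a, looked up after the other values were seen, read 3.96, 4.44 and 3.50 FPKM in the control and 6.44, 7.08 and 3.72 FPKM in clec16a MO libraries (log2 difference 0.41, limma adjusted p = 0.12), and its groups overlapped. lars1b read 3.27, 3.03 and 3.63 FPKM against 3.76, 3.53 and 2.40 FPKM (log2 difference -0.04, limma adjusted p = 0.83). Neither was called as deposited; with median centring both were called higher (1.1004 and 0.65), so the direction of lars1b turned with scaling. Reads may be divided between these paralogs.

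**Figure D2:**
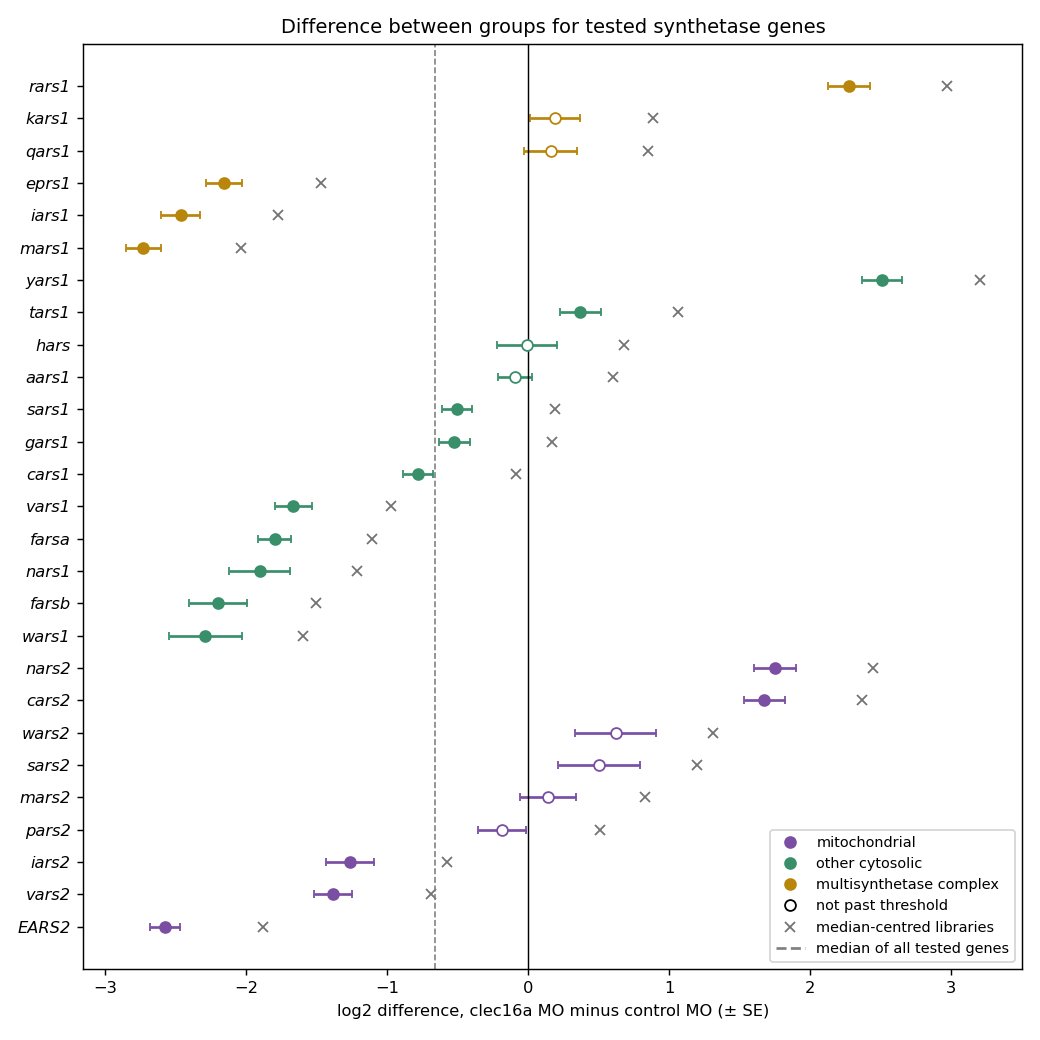
Points are log2 differences, clec16a MO minus control MO on the log2(FPKM + 1) scale, with SE bars, for the named tested members grouped by role; open points did not pass the threshold, grey crosses are the same differences after median centring, and the dashed line is the median of all tested rows, -0.66. yars1 and rars1 lie above 2 and mars1, EARS2, iars1, wars1, farsb and eprs1 below -2; the EARS2 value depends on the pseudocount, since all 3 clec16a MO libraries list EARS2 at 0.

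Outside the complex, 2 of 12 cytosolic members rose, 8 fell and 2 were not called (16.7% higher and 66.7% lower, against 26.7% and 54.6% of all tested rows). yars1, the tyrosyl enzyme, read 6.65, 4.89 and 6.62 FPKM in control libraries and 35.0, 40.5 and 41.7 FPKM in clec16a MO libraries, from 6.06 ± 1.01 to 39.1 ± 3.59 FPKM (SD, n = 3), a 6.45-fold ratio (log2 difference 2.51 with SE 0.14, limma adjusted p = 3.1e-06). tars1, for threonine, read 18.2, 16.5 and 17.0 FPKM against 27.9, 19.5 and 21.1 FPKM, a small difference without overlap (log2 difference 0.37 with SE 0.15, limma adjusted p = 0.049). Of all tested rows, 27.6% lay above without overlap. The tars1 call ended without any 1 of the 3 control libraries, or without clec16a MO replicate 1 (0.22) or 3 (0.42), and held without replicate 2 (0.47). It also ended with no filter, no mean-variance trend or a pseudocount of 0.1. Its paralog tars3 was below the filter, at 0.270, 0.201 and 0.124 FPKM in the control and 0.460, 0.316 and 0.189 FPKM in clec16a MO libraries.

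The larger decreases were in enzymes for tryptophan, phenylalanine, asparagine and valine. wars1 read 16.9, 16.5 and 18.3 FPKM in the control and 4.27, 1.52 and 2.90 FPKM in clec16a MO libraries (log2 difference -2.29 with SE 0.26, limma adjusted p = 0.00011). nars1 read 30.5, 32.1 and 34.1 FPKM against 11.7, 6.41 and 6.43 FPKM (log2 difference -1.90 with SE 0.22). vars1 read 4.58, 4.72 and 5.09 FPKM against 1.04, 0.638 and 0.824 FPKM (log2 difference -1.67 with SE 0.13), with a clec16a MO mean below 1 FPKM. In wars1 and nars1 the clec16a MO libraries spread widely, with replicate 1 highest in both. None reached the control range, as in 56.1% of all tested rows.

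Cytosolic phenylalanyl-tRNA synthetase is built from the products of farsa and farsb, its alpha and beta subunits, and their transcripts fell together. farsa read 28.1, 30.7 and 28.0 FPKM in the control and 8.34, 7.91 and 6.64 FPKM in clec16a MO libraries (log2 difference -1.80 with SE 0.12, limma adjusted p = 5.9e-06). farsb read 30.3, 28.0 and 31.3 FPKM against 8.26, 5.19 and 4.28 FPKM (log2 difference -2.20 with SE 0.21, limma adjusted p = 4.3e-05). The ratio of farsa to farsb was 0.926, 1.097 and 0.894 in control libraries and 1.01, 1.52 and 1.55 in clec16a MO libraries. The ratio of clec16a MO replicate 1 lay within the control range and those of replicates 2 and 3 above it. An exact permutation test gave p = 0.2, two-sided. With 3 against 3 it cannot go below 0.1, so it cannot decide whether the ratio changed.

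A further 3 cytosolic enzymes fell by less. cars1, for cysteine, read 15.1, 15.2 and 15.02 FPKM in the control and 9.23, 7.76 and 8.24 FPKM in clec16a MO libraries (log2 difference -0.78 with SE 0.11, limma adjusted p = 0.00032). gars1, which in vertebrates serves both cytosol and mitochondria, read 31.9, 29.8 and 31.4 FPKM against 20.0, 19.8 and 24.2 FPKM (log2 difference -0.53 with SE 0.11). sars1, for serine, read 24.2, 25.9 and 25.9 FPKM against 18.6, 18.6 and 15.6 FPKM (log2 difference -0.50 with SE 0.11). None of the 3 overlapped between groups, where 56.1% of all tested rows lay below without overlap. Their differences were of the size of the median of all rows. With median centring cars1 was no longer called (-0.09), and gars1 and sars1 turned to 0.17 and 0.19 without a call; with quantile normalization all 3 were called lower.

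aars1 and hars were not called. aars1, for alanine, read 11.4, 12.01 and 11.2 FPKM in the control and 11.9, 11.2 and 9.32 FPKM in clec16a MO libraries (log2 difference -0.09 with SE 0.12, limma adjusted p = 0.49), and was called higher with median centring (0.60) and quantile normalization (0.36). hars, for histidine, had the highest control level of all members and read 46.4, 43.1 and 47.2 FPKM against 64.9, 36.5 and 38.9 FPKM (log2 difference -0.01 with SE 0.21, limma adjusted p = 0.97). Its clec16a MO libraries lay on both sides of the control range. Without clec16a MO replicate 1 it was called lower (-0.27), and with median centring higher (0.68).

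The summed level of the cytosolic set did not differ beyond the spread between libraries, while single genes took different shares of it. The 19 cytosolic rows summed to 374, 371 and 387 FPKM in control libraries and to 423, 333 and 317 FPKM in clec16a MO libraries, 377 ± 8.49 against 358 ± 57.2 FPKM (SD, n = 3; exact permutation p = 0.5, two-sided). rars1 alone took 5.39% ± 0.347 of this sum in the control and 28.9% ± 2.68 in clec16a MO libraries, and yars1 1.60% ± 0.249 and 11.2% ± 2.59. Leaving out rars1 and yars1 was a choice made after their values were seen. The other 17 rows summed to 347, 347 and 358 FPKM in the control and 267, 187 and 191 FPKM in clec16a MO libraries. Because the genes left out had risen, the choice itself shifted the comparison towards lower clec16a MO sums, and no test is given. The cytosolic rows held 0.0758% ± 0.00292 and 0.0683% ± 0.00851 of all summed FPKM (exact permutation p = 0.3).

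**Figure D3:**
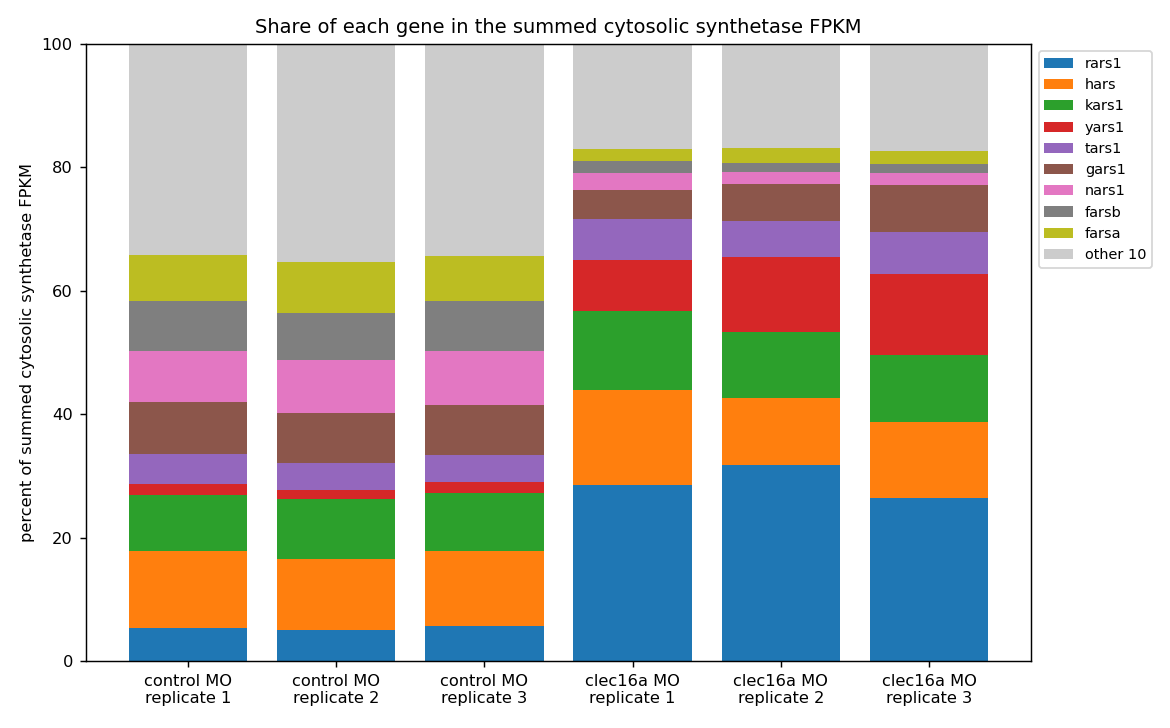
Each bar is 1 library, and its segments are the percent of the summed FPKM of the 19 cytosolic synthetase genes taken by each named gene, with the other 10 genes in grey. rars1 takes 5.04% to 5.73% in control libraries and 26.4% to 31.8% in clec16a MO libraries.

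Mitochondrial synthetases charge the tRNAs of the mitochondrial genome. All but cars2, EARS2, iars2, wars2 and vars2 were below 3 FPKM on average in control libraries. cars2, for cysteine, read 6.25, 6.22 and 7.48 FPKM in the control and 19.6, 26.1 and 25.0 FPKM in clec16a MO libraries (log2 difference 1.68 with SE 0.14, limma adjusted p = 2.6e-05). nars2, for asparagine, read 0.690, 0.482 and 0.486 FPKM against 5.22, 3.89 and 3.69 FPKM (log2 difference 1.75 with SE 0.15, limma adjusted p = 2.5e-05). The groups were well separated in both, with all clec16a MO values above the control range, as in 27.6% of all tested rows. nars2 passed the filter through the clec16a MO group, being below 1 FPKM in every control library, so a difference was needed for it to be tested at all.

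iars2 and vars2 fell, and EARS2 was called lower. EARS2, the mitochondrial glutamyl enzyme, read 5.24, 5.02 and 4.62 FPKM in control libraries and was listed at 0 throughout the clec16a MO group. An exact 0 in this table can be a failed estimate, so no fold is given, and the EARS2 call rests on these zeros. iars2, for isoleucine, read 4.09, 4.52 and 4.41 FPKM against 0.786, 1.26 and 1.71 FPKM (log2 difference -1.26 with SE 0.17, limma adjusted p = 0.00032; with quantile normalization -0.37, limma adjusted p = 0.070). vars2, for valine, read 3.11, 3.68 and 4.30 FPKM against 0.758, 0.801 and 0.809 FPKM (log2 difference -1.38 with SE 0.13, limma adjusted p = 4.6e-05). These 3 did not overlap between groups, where 56.1% of all tested rows lay below without overlap.

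A further 4 mitochondrial members were not called. wars2, for tryptophan, read 3.63, 3.76 and 3.93 FPKM in the control and 9.16, 3.56 and 7.52 FPKM in clec16a MO libraries (log2 difference 0.62 with SE 0.29, limma adjusted p = 0.081), and was called higher without clec16a MO replicate 2 (0.96), which lay below the controls. sars2, for serine, read 1.81, 0.887 and 0.959 FPKM against 1.16, 3.49 and 2.04 FPKM (log2 difference 0.50 with SE 0.29, limma adjusted p = 0.14), and was called higher without clec16a MO replicate 1 (0.76). mars2 read 2.87, 1.98 and 1.57 FPKM against 2.103, 2.09 and 3.13 FPKM, and pars2, for proline, 2.12, 2.35 and 2.67 FPKM against 1.91, 2.63 and 1.47 FPKM, with log2 differences of 0.14 and -0.19. The groups overlapped in all 4 genes. All 4 were called higher with median centring and with quantile normalization, which turned the direction of pars2 (0.51 and 0.75).

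The filter divided the mitochondrial set at low levels. sars2 lay just inside it, at a mean of 1.72 FPKM over the 6 libraries, and yars2 just outside, at 0.888 FPKM. yars2, for tyrosine, read 2.01, 1.25 and 1.74 FPKM in the control and 0.205, 0.0362 and 0.0787 FPKM in clec16a MO libraries. rars2, for arginine, read 0.890, 1.47 and 1.25 FPKM against 0.0485, 0 and 0.107 FPKM. aars2 read 0.837, 0.727 and 0.957 FPKM against 0.0350, 0.146 and 0.293 FPKM. All clec16a MO values of these 3 genes lay below the control range. lars2, for leucine, read 0.279, 0.503 and 0.356 FPKM against 0.176, 0 and 0 FPKM, and fars2, for phenylalanine, 1.01, 0.679 and 0.835 FPKM against 0, 0.627 and 0.422 FPKM. The groups did not overlap for lars2 or fars2 either. Among rows that passed the filter, 56.1% had all clec16a MO values below the control range, and the share among rows below the filter was not computed. With no filter, limma called yars2, rars2, aars2 and lars2 lower and did not call fars2 (limma adjusted p = 0.074). Of all 21837 rows, 47.8% were called lower with no filter.

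Summed over the 15 mitochondrial rows, the level was 35.4, 34.0 and 36.3 FPKM in the control and 47.7, 51.6 and 53.6 FPKM in clec16a MO libraries, 35.2 ± 1.14 against 51.0 ± 2.98 FPKM (SD, n = 3; exact permutation p = 0.1, the smallest possible). The higher sum rested on cars2: without it, a choice made after seeing the values, the sums were 28.6 ± 0.716 and 27.4 ± 1.65 FPKM. No test is given for sums without cars2, since the choice followed its rise.

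Transcripts for the cytosolic and the mitochondrial enzyme of 1 amino acid could move in opposite directions. For asparagine and cysteine the cytosolic gene fell and the mitochondrial gene rose. The fall of cars1 depended on scaling: it was not called with median centring (-0.09, limma adjusted p = 0.46) and was called with quantile normalization (-0.35). The ratio of nars1 to nars2 was 44.2, 66.6 and 70.3 in control and 2.24, 1.65 and 1.75 in clec16a MO libraries, and that of cars1 to cars2 was 2.42, 2.45 and 2.01 against 0.472, 0.297 and 0.330. In the cysteine pair the mitochondrial gene thus had the higher FPKM in each clec16a MO library and the lower in each control library. Denominators below 1 FPKM make the control ratios over nars2 imprecise.

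The arginine and tyrosine pairs went the other way. The cytosolic transcripts rose while rars2 and yars2, both below the filter, stood near 0. The ratio of yars1 to yars2 went from 3.30, 3.92 and 3.80 to 171, 1118 and 530, and that of rars1 to rars2 from 22.7, 12.7 and 17.8 to 2490 and 783 in the libraries where rars2 was above 0. The clec16a MO ratios rest on denominators of 0.205 FPKM or less and are imprecise. For alanine, with aars1 not called and aars2 below the filter, the ratio went from 13.7, 16.5 and 11.8 to 342, 76.8 and 31.8. The aars2 denominators were below 1 FPKM in every library, so these ratios are imprecise as well.

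For methionine, tryptophan, isoleucine and proline the ratio passed through 1. mars1 over mars2 read 3.92, 6.08 and 7.14 in the control and 0.516, 0.393 and 0.243 in clec16a MO libraries, and wars1 over wars2 read 4.65, 4.38 and 4.67 against 0.466, 0.426 and 0.385. iars1 over iars2 read 1.64, 1.58 and 1.75 against 0.890, 0.276 and 0.245, with both genes called lower. For proline, eprs1 over pars2 read 3.91, 3.74 and 3.34 against 0.735, 0.438 and 0.650. The ratio of sars1 to sars2 overlapped between groups, at 13.4, 29.2 and 27.03 against 16.02, 5.33 and 7.66. The valine genes kept similar levels, both falling, with ratios of 1.48, 1.28 and 1.19 against 1.37, 0.796 and 1.02 that overlapped between groups. Scaling a whole library by 1 factor leaves such ratios unchanged, but quantile normalization does not. They show unequal change within a pair and not which gene changed, and no test was run over the pairs.

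**Figure D4:**
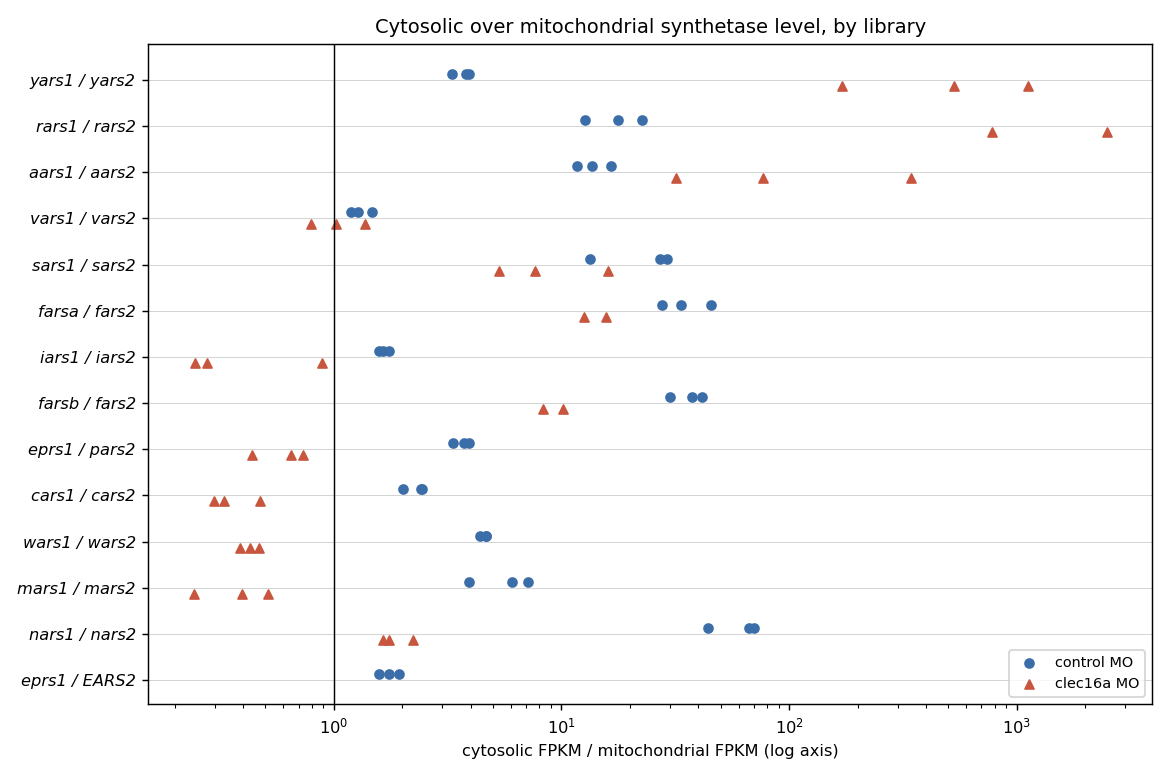
Points are the FPKM of a cytosolic synthetase gene divided by that of the mitochondrial gene for the same amino acid in each library, on a log axis; the vertical line marks a ratio of 1, and libraries with the mitochondrial gene listed at 0 have no point. nars1 / nars2 goes from 44.2 to 70.3 in control libraries down to 1.65 to 2.24, and yars1 / yars2 from 3.30 to 3.92 up to 171 to 1118.

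Partner genes of tRNA charging and elongation were read from a list of 39 names, of which 31 matched a row and 30 were tested: 5 were called higher, 18 lower and 7 not called, with a median log2 difference of -1.12, against 26.7% higher and 54.6% lower over all rows. With median centring 10 of the 30 were called higher and 15 lower, where 4819 and 4632 of all 12153 tested rows were. With quantile normalization 12 and 14 of the 30 were, where 4614 and 4835 of all tested rows were. Cytosolic elongation factors bring charged tRNA to the ribosome and move the ribosome along. Of 9 tested rows of this role, 8 fell and 0 rose; the 8 include eef2k, the kinase that inhibits the translocase, from 23.95 ± 1.27 to 6.82 ± 0.548 FPKM. eef2b, the translocase, fell from 420 ± 2.81 to 6.87 ± 1.97 FPKM (n = 3, SD; log2 difference -5.77 with SE 0.17). eef1a1l1, which carries aminoacyl-tRNA, fell from 605 ± 3.38 to 58.7 ± 1.08 FPKM, and its exchange factor subunit eef1b2 from 43.8 ± 1.49 to 3.50 ± 0.477 FPKM. The 8 include eef2a.1, whose difference of -0.50 turned to 0.54 with a call under quantile normalization (limma adjusted p = 0.015).

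Mitochondrial partners were divided. The elongation factor gene tufm rose from 37.6, 38.6 and 35.6 FPKM to 97.0, 98.7 and 83.1 FPKM (log2 difference 1.29 with SE 0.10, limma adjusted p = 1.4e-05), and gfm2, a factor for ribosome recycling, from 2.54 ± 0.212 to 4.90 ± 0.499 FPKM. The translocase gene gfm1 and the exchange factor gene tsfm fell, from 3.83 ± 0.638 to 1.08 ± 0.0752 FPKM and from 2.31 ± 0.0703 to 0.896 ± 0.303 FPKM. With quantile normalization gfm1 was no longer called (-0.29, limma adjusted p = 0.11). tsfm was called with neither median centring nor quantile normalization, and turned to 0.20 with the latter. mtfmt, which formylates the initiator methionyl-tRNA of mitochondria, rose from 5.95, 6.23 and 6.67 FPKM to 18.4, 14.6 and 12.2 FPKM (log2 difference 1.13 with SE 0.16).

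Vertebrate mitochondria make glutaminyl-tRNA by charging it with glutamate and amidating it, so EARS2 works with an amidase of 3 subunits. Their genes did not move together. gatb rose from 3.14, 3.62 and 2.22 FPKM to 7.45, 7.13 and 7.12 FPKM (log2 difference 1.06 with SE 0.16), while gatc fell from 16.9, 15.3 and 14.8 FPKM to 5.90, 4.47 and 5.53 FPKM (log2 difference -1.41 with SE 0.13). qrsl1, which encodes the catalytic subunit, read 9.57, 9.09 and 8.495 FPKM against 6.58, 5.90 and 5.12 FPKM (log2 difference -0.55 with SE 0.13, limma adjusted p = 0.0048). Median centring and quantile normalization each removed the qrsl1 call and turned its direction (0.14 and 0.054).

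Among genes for tRNA end processing and export, 2 of 4 tested were called lower, where 54.6% of all tested rows were. xpot, the tRNA exporter, read 17.4, 18.1 and 20.5 FPKM in the control and 0.576, 0.844 and 1.26 FPKM in clec16a MO libraries (log2 difference -3.39 with SE 0.16). elac1, a tRNA end nuclease, read 6.70, 6.92 and 6.89 FPKM against 0.403, 0.189 and 0.321 FPKM (log2 difference -2.59 with SE 0.12). Both xpot and elac1 had clec16a MO means below 1 FPKM and passed the filter through the control group, so the size of their differences is imprecise. The remaining 2 tested genes of this role, elac2 and trnt1, were not called as deposited (log2 differences -0.27 and 0.24). Under each other scaling both were called higher: elac2 turned direction, to 0.43 after median centring and 0.69 after quantile normalization, and trnt1 read 0.93 and 1.18. Of the editing genes and relatives, sepsecs, which converts a seryl intermediate into selenocysteinyl-tRNA, fell from 6.90 ± 0.728 to 1.99 ± 0.697 FPKM, and the other 4 tested were not called as deposited. With median centring and with quantile normalization dtd1 (0.78 and 0.81), dtd2 (1.37 and 1.18) and lars1b (0.65 and 0.80) were called higher. aarsd1, an editing protein related to the alanyl enzyme, was called under neither. It read 3.94, 4.77 and 4.40 FPKM in the control and 4.64, 0.811 and 0.739 FPKM in clec16a MO libraries, so that clec16a MO replicate 1 lay within the control range and the others far below it.

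Replicate spread of the tested members differed between the groups. Over the 29 tested members the median coefficient of variation was 5.62% in control libraries and 21.8% in clec16a MO libraries, where EARS2 at 0 gave none. Among the other 28, clec16a MO replicate 1 held the highest value of its group for 18, and replicates 2 and 3 for 4 and 6. In the control group the highest value fell to replicates 1, 2 and 3 for 8, 5 and 16 members. Neither the spread nor these counts were computed over all tested rows, so whether they are particular to the members is not known. The summed FPKM of clec16a MO replicate 1, 546225, was also the highest of its group, and its part in this was not tested. The groups did not overlap for 21 members, with the clec16a MO libraries above in 6 and below in 15, where 27.6% of all tested rows lay above and 56.1% below.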

How the data were processed

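The authors deposited 1 table of FPKM values, with 1 column per library and gene symbols as row names. Cutadapt 1.9, HISAT2 2.2.1, StringTie 2.1.6, DESeq2 and edgeR appear, with no settings, per the submitters' processing notes. The genome build is not given in the sources used here; coordinates and sequences are therefore not printed. Per the labels' protocols, cDNA was made with oligo(dT) priming and template switching and amplified by PCR. Of 21853 rows, 16 carried a calendar date as name and were left out, and 416 repeated a name and were kept apart. A search of low values for steps of whole reads gave at most 58 genes at a common ratio between control libraries and 25 between clec16a MO libraries, so no depth was recovered.

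Tests used limma 3.58.1 (R 4.3.3) on log2(FPKM + 1) with a mean-variance trend and group as the only term, two-sided, over the 12153 rows with a mean of at least 1 FPKM, with Benjamini-Hochberg adjustment. This scale understates changes of low genes. The script was tested on simulated data. Sums were compared by exact permutation (SciPy 1.17.1); figures used matplotlib 3.10.9 (Python 3.11.15). Members and lists were chosen with earlier results of these data known. The values of 2 members, which the counts and sums include, are not reported here; the other members are named, with partner genes by smallest adjusted p within a role. Alternatives were pseudocounts of 0.5 and 0.1, no filter or a mean of 5 FPKM, median centring, quantile normalization, no trend, array weights, a replicate block, summed rows of 1 name, and leaving out each library.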

Additional observations from a re-analysis of the deposited data

How the results depend on the processing

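With median centring the synthetase genes called higher numbered 14 and with quantile normalization 12, and the partner genes called higher 10 and 12. Of all 12153 tested rows, 4819 and 4614 were called higher with these scalings. The cytosolic median log2 difference was -0.087 and -0.41 with these scalings and the mitochondrial median 1.01 and 1.21. With a mean of at least 5 FPKM, fewer rows are tested: 9 of 18 synthetase genes and 3472 of 7082 rows in all were lower. The cytosolic and mitochondrial medians were then -0.51 and 1.15, the latter of only 2 genes, cars2 and wars2. With no filter 19 of 34 synthetase genes and 10430 of 21837 rows in all were lower. The mitochondrial median was then -0.38, since the 5 low members enter. Leaving out 1 library each, that median ran from 0.00040 (without clec16a MO replicate 3) to 0.45, and log2 differences from -0.27 to 0.14 for hars, -0.039 to 0.31 for qars1, -0.015 to 0.30 for kars1 and -0.16 to 0.0012 for aars1. Directions turned with median centring for gars1 (0.17), sars1 (0.19), aars1 (0.60), hars (0.68) and pars2 (0.51), and with quantile normalization for aars1 (0.36) and pars2 (0.75). Without cars2 the mitochondrial sum differed by -1.17 FPKM, and without rars1 and yars1 the cytosolic sum by -136 FPKM, both chosen after seeing the data. The causes were not tested. Of 21 called members, 16 kept direction and call in every alternative that tested them, while cars1, gars1, sars1, iars2 and tars1 did not. The 16 include EARS2, whose clec16a MO zeros enter every alternative and can be failed estimates. Replicate numbers did not pair the libraries (correlations of same-numbered deviations 0.044, -0.018 and 0.0054). With the replicate block 6 of 29 tested synthetase genes were higher and 15 lower, where 3239 and 6604 of all 12153 tested rows were. Depth is unknown, and levels below 1 FPKM limit EARS2, iars1, mars1, vars1, vars2, nars2 and the 5 untested members. Such levels also limit the partner genes aimp1b, tsfm, xpot and elac1.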
